A study of Sus scrofa with 3 samples.

Results

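Genes of chromatin modifiers and remodellers were followed over 3 stages of molar development in the Wuzhishan miniature pig. They were chosen by symbol alone, as every gene whose symbol begins with HDAC, SIRT, KDM, JMJD, SMARC, SETD, SMYD, EZH, DNMT, ARID, MLL, MYST or PRMT, or with CHD, KAT, BRD or CBX and a digit, together with EED, SUZ12 and the ING family. Of the 6765 genes that the platform table names by 1 symbol, 66 were found, on 107 probe sets. A total of 42 genes had 1 probe set and 24 had several, and where there were several the one brightest over the 3 stages (mean log2 signal) stands for the gene. A further 1 probe set matched the rule but carried a second symbol as well and was left out. A match by symbol is wider than chromatin itself, since the genes include SIRT3 and SIRT5, which are mitochondrial enzymes, SETD3, which methylates actin, and the MLL fusion partners MLLT3 and MLLT11.

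The last deciduous molar germs of the lower jaw, dissected with the dental lamina, were compared between embryonic day 40 (E40, cap stage, before a secondary dental lamina has formed), E50 (bell stage, where the secondary dental lamina starts) and E60 (secretory stage, secondary dental lamina present). The germs of 1 litter were pooled at each stage, and 1 Affymetrix Porcine Genome Array was used per pool. All animals were of the same breed and no treatment is listed for any stage. Each stage came from a litter of its own, so that age, litter and array cannot be told apart. A pool holds dental epithelium, mesenchyme and whatever neighbouring tissue was dissected with them.

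Chromatin modifiers write, erase or read chemical marks on histones and DNA, and remodellers use ATP to slide, evict or exchange nucleosomes. Acetyltransferases and deacetylases set the acetylation of histone tails, methyltransferases and demethylases set their methylation, and the DNA methyltransferases mark cytosines. In developing organs such as the tooth germ these proteins work in complexes that keep cells proliferating or let them take on a specialised fate, and many also act on proteins outside the nucleus.

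Most chromatin genes differed by less than 2-fold between the arrays. For E50 over E40, CHD7 and SMYD1 were lower by over 2-fold and no chromatin gene was higher, that is 2 lower and 0 higher of 65 measured genes, while 7.98% of all measured genes were lower and 2.73% higher. For E60 over E50 none of 64 measured chromatin genes passed 2-fold, against 4.37% higher and 1.75% lower among all genes. For E60 over E40, EZH2, HDAC6 and SMYD1 were lower and SMYD2 was higher, 3 lower and 1 higher of 65 genes, against 7.21% lower and 4.44% higher among all genes. With the arrays scaled to equal medians the split was 1 higher (SMYD2) and 1 lower (SMYD1) for E50 over E40, against 8.49% higher and 5.09% lower among all genes, and 2 higher (JMJD7 and SMYD2) and 1 lower (SMYD1) for E60 over E40, against 8.78% and 4.49%. The 3 comparisons share arrays, so that on the log2 scale the last is the sum of the first and the second. No stage was repeated on a further array, so there is no replicate error and no p-value is given. Each count compares 3 pools and not the stages at large, and in a pool a smaller share of a cell type cannot be told apart from less RNA per cell.

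Signals are the deposited MAS5 values, which have an equal trimmed mean on each array, and values of each array below its 25th percentile (29.3 at E40, 17.2 at E50, 21.8 at E60) were set to that percentile, called the level here. Of the 66 genes, 64 lay above this level on all 3 arrays, SMYD1 at E40 alone and JMJD1C on none, with 2.98 at E50, 18.0 at E60 and less than either at E40, so JMJD1C was not measured. The chromatin genes were bright on these arrays, with a median over genes of the geometric mean signal of 772, against 489 over all genes. The only measure of spread inside the table was the SD of the log2 fold change between probe sets of 1 gene. It was pooled over chromatin genes with at least 2 probe sets above the level. The SD was 0.40 for E50 over E40 (20 genes), 0.35 for E60 over E50 (20 genes) and 0.44 for E60 over E40 (21 genes). Probe sequence and noise both enter this SD, and dim probe sets are among those pooled. Differences of litter, pool, dissection or array can shift all probe sets of a gene alike, and the SD does not measure them. It thus serves as a yardstick of size and not as an error between stages.

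On the deposited scale small differences leaned to the lower side. The median log2 fold change of the chromatin genes was -0.13 for E50 over E40, against 0.04 for all genes, -0.16 for E60 over E50, against -0.04, and -0.27 for E60 over E40, against -0.01. A lower signal of any size was found for 40 of 65 chromatin genes for E50 over E40 (46.9% of all genes), for 46 of 64 for E60 over E50 (54.0% of all genes) and for 50 of 65 for E60 over E40 (50.5% of all genes). The sign of 2 of these medians depended on the scale. Equal medians were set over all 23999 analysed probe sets, of which 13732 carry no symbol. The median change of all genes, which are those with 1 symbol, need not be 0 on that scale. With the arrays set to equal medians the median of all genes moved to 0.43 for E50 over E40 and 0.30 for E60 over E40, and that of the chromatin genes to 0.26 and 0.042, with a lower signal for 17 of 65 (23.5% of all genes) and 29 of 65 (27.7% of all genes). Scaling to equal medians adds 1 constant to all genes and so leaves the chromatin median minus that of all genes as it is. Over the other alternatives and this one that difference was between -0.25 and -0.13 (log2) for E50 over E40, between -0.14 and -0.08 for E60 over E50 and between -0.28 and -0.17 for E60 over E40.

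Set against the SD between probe sets, on the deposited scale 23 of 65 genes were lower at E60 than at E40 by more than 0.44 (log2), 3 were higher by more than that (DNMT3B, JMJD7 and SMYD2) and 39 lay within it, while 21.9% of all genes were lower and 17.3% higher by the same margin. At equal medians this split turned to 6 lower and 12 higher, against 11.1% lower and 38.7% higher among all genes, and after quantile normalization it was 20 lower and 3 higher, against 16.7% and 23.5%. For E50 over E40, 16 genes were lower past the SD, 3 were higher and 46 lay within it, against 22.9% lower and 18.7% higher among all genes. At equal medians 2 were lower (CHD7 and SMYD1) and 24 higher, against 11.8% and 52.0% of all genes, and after quantile normalization 15 were lower and 5 higher, against 14.5% and 26.7%. For E60 over E50, 14 were lower, 5 higher and 45 within, against 17.8% lower and 19.1% higher among all genes. At equal medians 21 were lower and 3 higher, against 24.4% and 16% of all genes. After quantile normalization 14 were lower and 2 higher, against 19.5% and 15%. Single genes are set against the SD on the deposited scale unless another is named. Of the 64 genes above the level on every array, 27 (42.2%) had lower signals at both steps, 6 (9.38%) higher signals at both steps, 19 (29.7%) their highest signal at E50 and 12 (18.8%) their lowest signal at E50. Among 5743 such genes in all, the same shares were 19.2%, 19.2%, 36.7% and 24.8%. These shares count differences of any size on the deposited scale and move with the scale. At equal medians 17 of 65 chromatin genes had a lower signal for E50 over E40 (23.5% of all genes). At most 17 could thus be lower at both steps there, against 27 on the deposited scale.

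**Figure D1:**
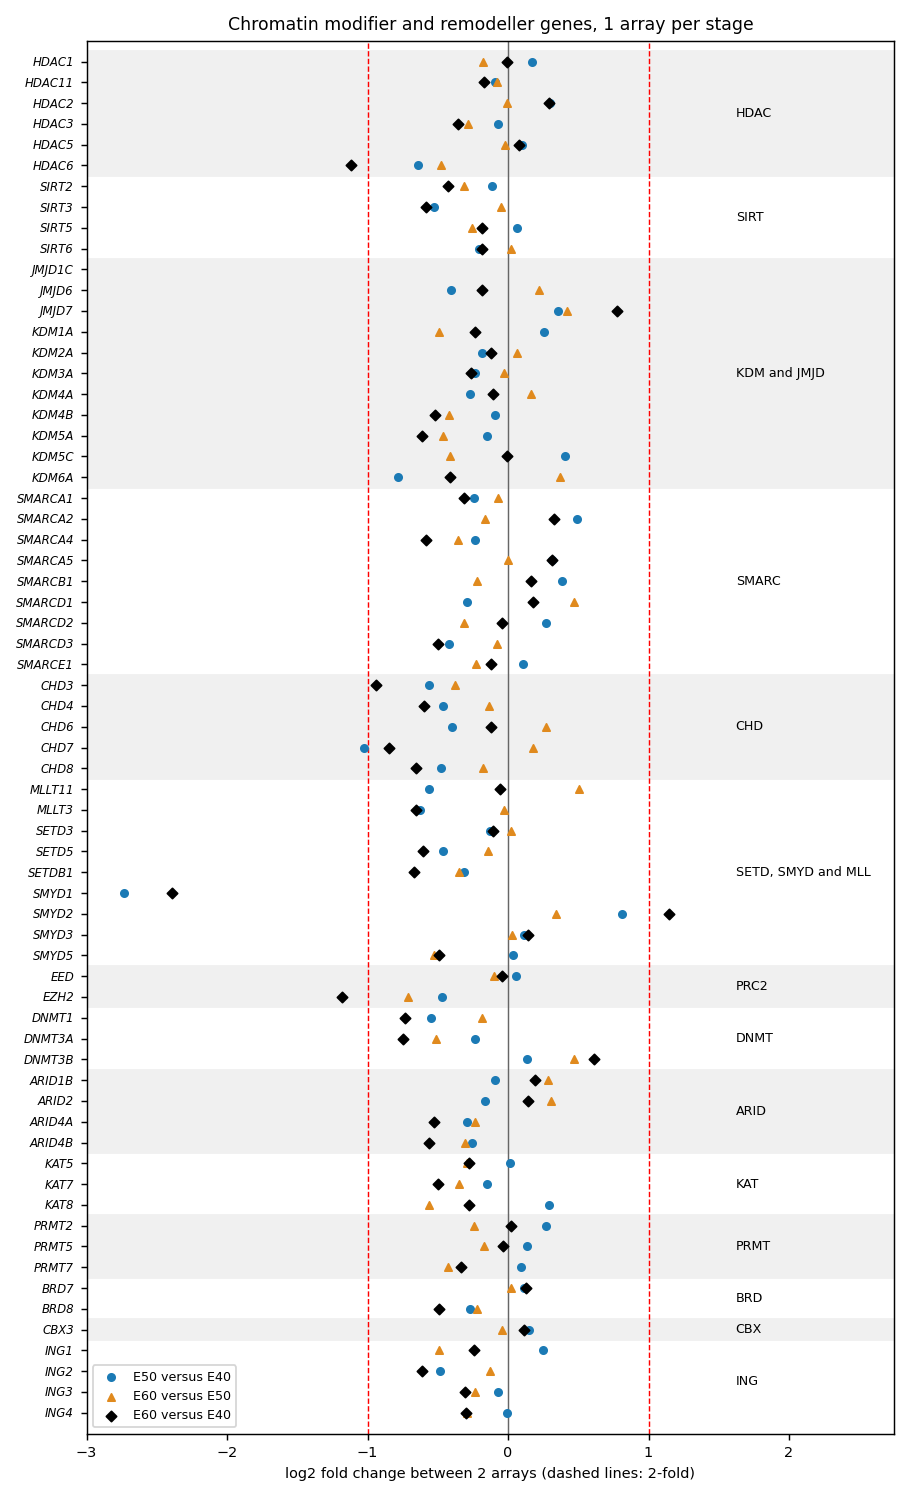
Log2 fold change (horizontal axis) of each of the 66 chromatin genes (vertical axis, by family) between 2 arrays, as circles for E50 over E40, triangles for E60 over E50 and diamonds for E60 over E40, with dashed lines at 2-fold. Only SMYD1 and CHD7 lie past the lower line for E50 over E40, and only EZH2, HDAC6 and SMYD1 (lower) and SMYD2 (higher) for E60 over E40. JMJD1C has no point.

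**Figure D2:**
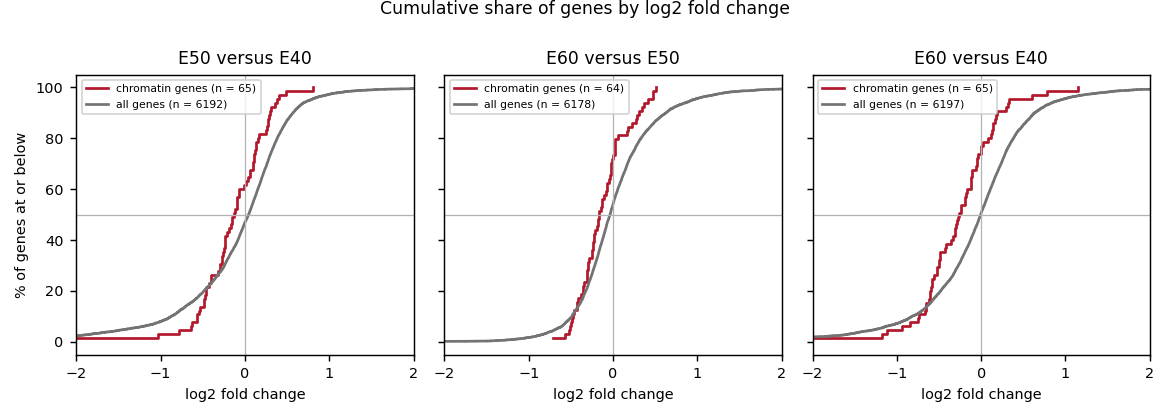
Cumulative percent of genes (vertical axis) at or below a log2 fold change (horizontal axis, cut at -2 and 2) for the chromatin genes (red) and all genes (grey) in each pair of stages. The red curve crosses 50% at -0.13, -0.16 and -0.27, against 0.04, -0.04 and -0.01 for the grey curve.

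SMYD1 had the largest difference of the chromatin genes. It encodes a methyltransferase of heart and skeletal muscle that serves in the assembly of the sarcomere, and its signal was 115 (E40), 3.70 (E50) and 2.70 (E60). It was at least 6.65-fold lower at E50 than at E40 and at least 5.25-fold lower at E60 than at E40, and at E50 and E60 it lay under the level, so no fold is given between them. Both bounds rest on the level: with 1 common level for the arrays each was at least 3.91-fold, and with the level at the 50th percentile SMYD1 was not measured in either pair. Skeletal muscle markers moved with it. Of 20 measured muscle genes 20 were lower by over 2-fold at E50 than at E40, against 7.98% of all genes. At E60 19 of 20 were lower by over 2-fold than at E40 (CHRNA1 was higher), against 7.21% of all genes. The summed signal of the 21 named genes was 46482 at E40, 1191 at E50 and 4116 at E60. The defining muscle genes MYOD1, MYF5 and MYF6 lay under the level at E50 and E60, and of all 21 genes 1 lay under it at E40, 7 at E50 and 10 at E60. Their part in the SMYD1 result was not tested.

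SMYD2, which methylates proteins of the cytosol and the nucleus, was the only chromatin gene over 2-fold higher on the deposited scale, at 669 (E40), 1171 (E50) and 1483 (E60). It was 2.22-fold higher at E60 than at E40, with log2 changes of 0.81 at the first step and 0.34 at the second. With the arrays at equal medians it passed 2-fold for E50 over E40 as well (1.20). SMYD2 rests on 1 probe set, so its change has no second reading.

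EZH2, the catalytic subunit of polycomb repressive complex 2 (PRC2), which places a repressive methyl mark on histone H3, had a lower signal at each step. Its signal was 2178 (E40), 1573 (E50) and 961 (E60), 2.27-fold lower at E60 than at E40 (log2 -1.18), with log2 changes of -0.47 and -0.71 at the 2 steps. EED, the subunit through which PRC2 recognises its own mark, stood at 1357 (E40), 1411 (E50) and 1315 (E60), and its second probe set at 269 (E40), 253 (E50) and 293 (E60). EZH2 thus fell over 2-fold for E60 over E40, while the log2 differences of the 2 EED probe sets were -0.05 and 0.12. EZH2 itself rests on 1 probe set, since the other one carried a second symbol. JARID2, which recruits PRC2 and was named after its values were seen, stood at 3308 (E40), 2749 (E50) and 2083 (E60). Proliferation markers moved in part with EZH2 on the deposited scale. For E60 over E50 18 of 18 had a lower signal (median log2 -0.44), against 54.0% of all genes. Only 1 of them was lower by over 2-fold, against 1.75% of all genes. For E60 over E40 16 of 18 had a lower signal (median -0.30), against 50.5% of all genes. For E50 over E40 their median was 0.22. Their summed signal was 23928 at E40, 29611 at E50 and 21948.5 at E60, and their part in the EZH2 result was not tested. At equal medians EZH2 was under 2-fold (-0.87).

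HDAC6, a mainly cytoplasmic deacetylase of tubulin, had a lower signal at E60 than at E40 on all 6 measured probe sets of 7. Its brightest probe set stood at 699 (E40), 449 (E50) and 322 (E60), 2.17-fold lower at E60 than at E40. The next brightest pair stood at 269 (E40), 193 (E50) and 114 (E60) (log2 -1.24 for E60 over E40), and at 211 (E40), 134 (E50) and 79.4 (E60) (log2 -1.41). Of the dim ones, 1 stood at 63.5 (E40), 29.3 (E50) and 45.0 (E60). Another stood at 114 (E40), 14.0 (E50) and 23.0 (E60), 4.97-fold lower at E60 than at E40. The remaining pair lay under the level at E50 and E60. Between probe sets the E60 over E40 log2 change thus ran from -0.50 to -2.31 where both signals were above the level, so the direction was shared and the size was not. At equal medians the brightest probe set was under 2-fold (-0.81).

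CHD7, a remodeller whose mutation causes CHARGE syndrome in humans, was lower at E50 than at E40 and changed less after that. Its signal was 882 (E40), 433 (E50) and 491 (E60), 2.04-fold lower at E50 than at E40 (log2 -1.03), and its log2 change was 0.18 for E60 over E50. A second probe set stood at 119.6 (E40), 51.0 (E50) and 76.7 (E60) (log2 -1.23 for E50 over E40), and the third lay under the level on all arrays. CHD7 is just past the 2-fold limit, and it was inside it after scaling to equal medians (-0.64) and after quantile normalization (-0.95).

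**Figure D3:**
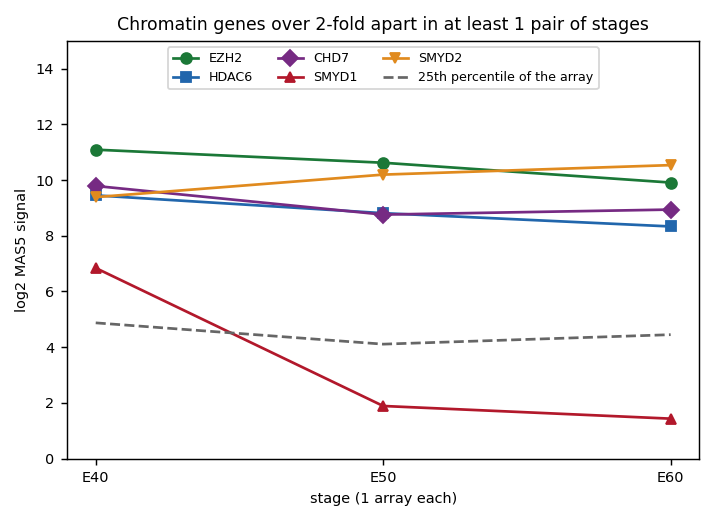
Log2 signal (vertical axis) on the E40, E50 and E60 arrays (horizontal axis, 1 array each) of the 5 chromatin genes over 2-fold apart in at least 1 pair, with the 25th percentile of each array as a dashed line. EZH2 and HDAC6 go down at each step, CHD7 at the first, SMYD2 goes up, and SMYD1 lies below the dashed line at E50 and E60.

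The DNA methyltransferases did not move as one. DNMT1, which copies methylation to the new strand after replication, stood at 2257 (E40), 1543 (E50) and 1358 (E60), and DNMT3A, which sets new marks, at 1885 (E40), 1598 (E50) and 1121 (E60). Their log2 differences for E60 over E40 were -0.73 and -0.75, past the SD of 0.44 between probe sets but under 2-fold, and at equal medians DNMT1 was within it (-0.42). A second bright DNMT1 probe set read 1208 (E40), 1153 (E50) and 987 (E60) (log2 -0.29). DNMT3B, the other enzyme that sets new marks, was dim and ran the other way, at 36.6 (E40), 40.2 (E50) and 55.8 (E60) (log2 0.61 for E60 over E40), and passed 2-fold after quantile normalization only (1.05). The part of the proliferation markers given for EZH2 was not tested for DNMT1 either.

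Of the SETD, SMYD and MLL genes, those other than SMYD1 and SMYD2 stayed within 2-fold. SETDB1, which makes the mark of heterochromatin, stood at 1712 (E40), 1375 (E50) and 1077 (E60), and SETD5, a SET-domain protein, at 3022 (E40), 2191 (E50) and 1986 (E60). Both were lower at E60 than at E40 by more than the SD between probe sets (-0.67 and -0.61), but not at equal medians (-0.36 and -0.30). SMYD5 stood at 257 (E40), 263 (E50) and 183 (E60), with a dim second probe set that read -0.54 for E60 over E40 beside -0.49 for the first. SMYD3, at 451 (E40), 489 (E50) and 498 (E60), and SETD3, at 659 (E40), 604 (E50) and 612 (E60), differed by less than that SD, which SMYD3 passed at equal medians (0.45). MLLT3, a reader of acylated histones in transcription elongation complexes, stood at 2510.3 (E40), 1623 (E50) and 1591 (E60), and its dimmer probe set went the same way (log2 -0.55 beside -0.66 for E60 over E40). MLLT11 had its lowest signal at E50, at 937 (E40), 633 (E50) and 899 (E60).

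The lysine demethylases had no shared shape. For E60 over E40, 9 of 10 measured KDM and JMJD genes had a lower signal (median log2 -0.21), against 50.5% of all genes. Only 3 of 10 did at equal medians (27.7% of all genes) and 5 of 10 after quantile normalization (43.5%), so their direction rests on the scale. KDM1A, which removes methyl groups from histone H3 in repressor complexes with the class I deacetylases, was highest at E50, at 1977 (E40), 2366 (E50) and 1680.3 (E60). KDM5A, which erases the methyl mark of active promoters, stood at 455 (E40), 411 (E50) and 298 (E60), and its other probe set at 282 (E40), 222 (E50) and 203 (E60) (log2 -0.61 and -0.47 for E60 over E40). KDM5C, of the same activity, peaked at E50 instead, at 84.1 (E40), 112 (E50) and 83.9 (E60). KDM6A, which removes the mark that EZH2 places, was lowest at E50, at 493 (E40), 287 (E50) and 371 (E60), with a log2 change of -0.78 at the first step and 0.37 at the second. It thus did not share the second step of EZH2 (-0.71).

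KDM4B, a demethylase of the heterochromatin mark, stood at 1558 (E40), 1458 (E50) and 1087 (E60). Its relative KDM4A had 448 (E40), 371 (E50) and 416 (E60), and KDM3A, another demethylase, had 174 (E40), 147 (E50) and 144 (E60), both within the SD for E60 over E40. A dim second KDM3A probe set differed in sign (log2 0.51 beside -0.27). KDM2A showed how far 2 probe sets can part. The representative stood at 715 (E40), 629 (E50) and 657 (E60) and the other at 803 (E40), 484 (E50) and 482 (E60), log2 changes of -0.12 and -0.74 for E60 over E40. Of the JmjC hydroxylases, JMJD6 stood at 180.0 (E40), 136 (E50) and 158 (E60) and JMJD7, near the dim end, at 60.5 (E40), 77.4 (E50) and 104 (E60). JMJD7 was higher at both steps (0.78 for E60 over E40) and passed 2-fold at equal medians and after quantile normalization.

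Among the deacetylases the class I enzymes stayed within the SD for E60 over E40. HDAC1 stood at 1916 (E40), 2160.2 (E50) and 1909 (E60), and HDAC2, its partner in the Sin3 and NuRD complexes, at 1825 (E40), 2242 (E50) and 2233 (E60). HDAC3, of the NCoR complex, stood at 1568 (E40), 1492 (E50) and 1226 (E60), with another probe set at 236 (E40), 264 (E50) and 285 (E60), log2 changes of opposite sign (-0.35 and 0.28) that both lay within the SD. HDAC5, a class IIa enzyme that shuttles between nucleus and cytoplasm, had 720.2 (E40), 772 (E50) and 759 (E60), and HDAC11 had 175 (E40), 164 (E50) and 156 (E60). Of the 6 HDAC genes HDAC6 alone passed the SD for E60 over E40, while at equal medians HDAC2 was higher past it as well (0.60). The sirtuins, deacylases that use NAD, had lower signals at E60 than at E40 in 4 of 4 cases (2 of 4 at equal medians). Among all genes the shares were 50.5% and 27.7%. SIRT3 stood at 736 (E40), 510.2 (E50) and 492 (E60), SIRT2, which also acts on tubulin, at 700.1 (E40), 647 (E50) and 521 (E60), SIRT5 at 937 (E40), 981 (E50) and 822 (E60) and the nuclear SIRT6 at 309.8 (E40), 269 (E50) and 272 (E60). SIRT3 alone among them was past the SD (-0.58), and at equal medians it was within it (-0.27).

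The acetyltransferases were lower at E60 than at E50 in 3 of 3 cases, under each of the 3 scalings, and none by 2-fold. Among all genes 54.0% were lower on the deposited scale, 61.8% at equal medians and 57.2% after quantile normalization, so a count over so few genes says little. KAT8 alone of the 3 was past the SD at that step on the deposited scale. KAT8 (MOF) was highest at E50, at 807 (E40), 987 (E50) and 667 (E60), a log2 change of -0.57 at the second step. KAT7 (HBO1), which acts at replication origins, stood at 1136 (E40), 1023 (E50) and 804 (E60), and KAT5 (TIP60), which serves in DNA repair, at 173 (E40), 175 (E50) and 143 (E60). The ING proteins, which lead acetyltransferase and deacetylase complexes to methylated histone H3, were lower at E60 than at E50 in 4 of 4 cases under each scaling too. The same shares of all genes apply to this count. ING1 alone of the 4 was past the SD at that step on the deposited scale (-0.49). ING1 stood at 755 (E40), 898 (E50) and 638 (E60), and its second probe set at 199 (E40), 285 (E50) and 251 (E60) (log2 -0.24 and 0.33 for E60 over E40). ING3 stood at 650.1 (E40), 618 (E50) and 524 (E60) and ING4 at 845 (E40), 842 (E50) and 686 (E60). ING2, the dimmest of them, stood at 156 (E40), 111 (E50) and 102 (E60), and was past the SD for E60 over E40 (-0.61), but within it at equal medians (-0.30) and after quantile normalization (-0.31).

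The arginine methyltransferases each had their highest signal at E50, the most frequent shape among all genes above the level on every array (36.7%). PRMT5, which makes symmetric dimethylarginine on histones and splicing proteins, stood at 1183 (E40), 1298 (E50) and 1155 (E60). PRMT7 stood at 853 (E40), 911 (E50) and 676 (E60) and PRMT2 at 534 (E40), 644 (E50) and 543 (E60). All 3 had a higher signal at E50 than at E40 (log2 changes of 0.09 to 0.27) and a lower one at E60 than at E50 (-0.43 to -0.17). These signs held under each scaling. Only PRMT7 at the second step was past the SD on the deposited scale, while at equal medians all 3 were past it at the first step as well (0.66 for PRMT2, 0.52 for PRMT5 and 0.48 for PRMT7). There 52.0% of all genes were higher past the SD at the first step, and the median of all genes was 0.43. The dim probe sets of PRMT5 did not share this shape, at 51.8 (E40), 20.9 (E50) and 23.0 (E60), and at 35.2 (E40), 25.5 (E50) and 10.1 (E60).

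Subunits of the SWI/SNF remodelling complexes moved apart, and no SMARC gene passed 2-fold. SMARCA4 (BRG1) and SMARCA2 (BRM) are alternative ATPases of these complexes. SMARCA2 stood at 3551 (E40), 4982 (E50) and 4456 (E60), and SMARCA4 at 2833 (E40), 2413 (E50) and 1887 (E60). The log2 ratio of SMARCA2 to SMARCA4 thus changed by 0.72 for E50 over E40 and by 0.91 for E60 over E40, and a common factor on an array cannot alter such a ratio. SMARCA2 rests on 1 probe set, and a second SMARCA4 probe set was dim, at 31.6 (E40), 6.27 (E50) and 36.3 (E60). SMARCB1, a core subunit, stood at 2082 (E40), 2720.0 (E50) and 2334 (E60), and SMARCE1, another core subunit, at 1350.4 (E40), 1456 (E50) and 1244 (E60).

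The alternative subunits SMARCD1, SMARCD2 and SMARCD3 differed in shape. SMARCD3, which is enriched in muscle and heart, had 1217 (E40), 909.8 (E50) and 863 (E60) (log2 -0.50 for E60 over E40), and the part of the muscle markers given for SMYD1 was not tested. SMARCD1 was lowest at E50, at 213 (E40), 174 (E50) and 241 (E60). SMARCD2 was highest at E50, at 343 (E40), 413 (E50) and 332 (E60). A second SMARCD2 probe set stood at 80.3 (E40), 15.8 (E50) and 4.05 (E60), at least 3.68-fold lower at E60 than at E40, so the 2 readings of this gene do not match. The ISWI ATPases also parted: SMARCA5 stood at 1045 (E40), 1298 (E50) and 1298 (E60), with other probe sets at 766 (E40), 1065 (E50) and 1014 (E60), and at 158 (E40), 141 (E50) and 145 (E60), and SMARCA1 at 4180.3 (E40), 3528 (E50) and 3359 (E60). The log2 ratio of SMARCA5 to SMARCA1 changed by 0.63 for E60 over E40. On the deposited scale each of these 2 genes lay within the SD (0.31 and -0.32 for E60 over E40), so the ratio joins differences that are each small. SMARCA5 passed the SD at equal medians (0.62), and its dimmest probe set read -0.12 on the deposited scale.

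None of the ARID, BRD and CBX genes passed 2-fold. ARID1B, of the BAF form of SWI/SNF, stood at 671 (E40), 630.4 (E50) and 766 (E60), and ARID2 and BRD7, of the PBAF form, at 574 (E40), 513 (E50) and 633 (E60), and at 973 (E40), 1051 (E50) and 1065 (E60). A dimmer BRD7 probe set was lowest at E50, at 228 (E40), 146 (E50) and 234 (E60). ARID4A and ARID4B, subunits of the Sin3 deacetylase complex, stood at 235 (E40), 192 (E50) and 163 (E60), and at 82.8 (E40), 69.4 (E50) and 56.1 (E60), with log2 changes of -0.53 and -0.56 for E60 over E40. Both were within the SD at equal medians (-0.22 and -0.25) and after quantile normalization (-0.30 and -0.19). Their other probe sets were dimmer, and those measured at the first step read lower there. At the second step the other measured ones read higher, unlike the representatives (-0.24 and -0.31). For ARID4A these log2 changes were 0.53, 0.33 and at least 1.18, the last from a probe set under the level at E40 and E50. The ARID4B readings were 59.4 (E40), 18.2 (E50) and 24.6 (E60), and 52.5 (E40), 32.3 (E50) and 49.8 (E60). BRD8, of the TIP60 complex, stood at 1557 (E40), 1288 (E50) and 1108 (E60). CBX3 (HP1 gamma), which binds the heterochromatin mark, stood at 3735 (E40), 4150.4 (E50) and 4035 (E60), with log2 changes between -0.04 and 0.15.

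The CHD remodellers leaned to the lower side together at the first step and not at the second. All 5 measured genes had a lower signal at E50 than at E40 (median log2 -0.48), under each of the 3 scalings. Among all genes 46.9% were lower on the deposited scale, 23.5% at equal medians and 37.5% after quantile normalization. Only CHD7 was past the SD at equal medians (-0.64), where CHD3, CHD4, CHD6 and CHD8 lay between -0.18 and -0.01. For E60 over E40 all 5 had a lower signal (median log2 -0.66), and 4 of 5 at equal medians, against 50.5% and 27.7% of all genes. In both of these comparisons all 5 stood below the median of all genes under each scaling, but a count over so few genes says little. For E60 over E50 3 of 5 had a lower signal under each scaling, against 54.0% of all genes on the deposited scale. CHD6 (0.27) and CHD7 (0.18) were higher at that step. CHD4 and CHD3 are alternative ATPases of the NuRD complex, which joins remodelling to deacetylation. CHD4 stood at 2139 (E40), 1548 (E50) and 1413 (E60), and its 2 dimmer probe sets went the same way, with log2 changes of -0.60, -0.86 and -0.54 for E60 over E40. CHD3 stood at 944 (E40), 638 (E50) and 491 (E60), with a log2 change of -0.94 for E60 over E40 that was just inside the 2-fold limit. Its dim second probe set had log2 changes between -0.11 and 0.11. CHD8, a regulator of Wnt target genes, stood at 1435 (E40), 1028 (E50) and 909 (E60). CHD6 had 1341 (E40), 1018 (E50) and 1230.0 (E60), with a second probe set at 316 (E40), 217 (E50) and 161 (E60) that differed in its second step. The other NuRD enzymes, HDAC1 and HDAC2, had log2 changes of -0.0048 and 0.29 for E60 over E40.

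**Figure D4:**
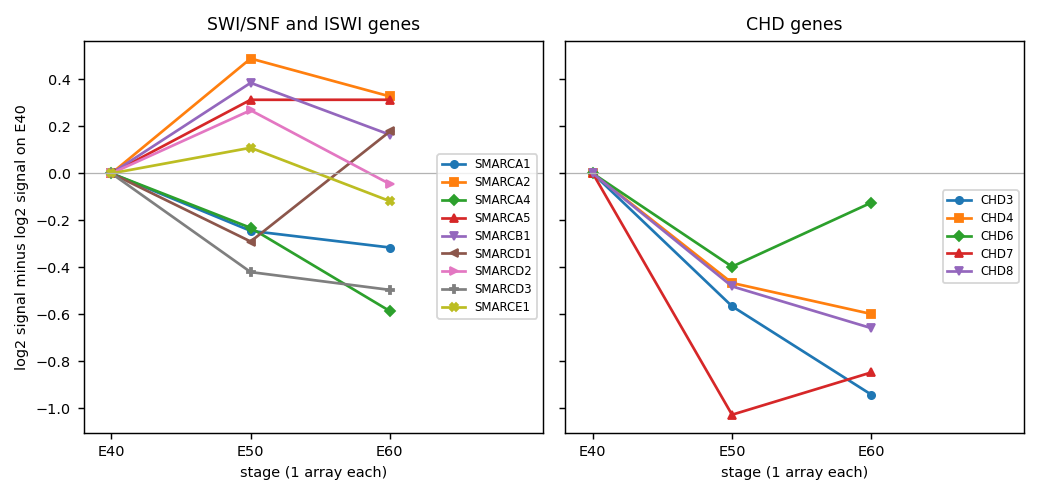
Log2 signal minus the log2 signal at E40 (vertical axis) on the E40, E50 and E60 arrays (horizontal axis, 1 array each) of SWI/SNF and ISWI genes (left) and CHD genes (right), 1 line per gene. The SMARC genes fan out to both sides of 0, with SMARCA2 at 0.33 and SMARCA4 at -0.59 at E60, and the 5 CHD genes lie below 0 (at E60 4 of 5 at equal medians).

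The choice of probe set bore on which genes passed 2-fold. The 41 probe sets that did not represent a gene were dim, with a median geometric mean signal of 43.8, against 772 for the 66 representatives. For E50 over E40, 8 of 33 measured ones were lower by over 2-fold and 0 higher, 4 of them with 1 signal under the level, against 2 of 65 representatives. Among all probe sets with 1 symbol, 9.68% were lower and 2.62% higher. For E60 over E50, 3 of 33 were higher and 0 lower (4.82% and 1.96% of all such probe sets), and for E60 over E40 6 of 34 were lower and 0 higher (8.49% and 4.3%). Where a gene had at least 2 probe sets above the level, all of its probe sets moved the same way in 12 of 20 chromatin genes for E50 over E40 (59.1% over all genes), in 11 of 20 for E60 over E50 (51.9% over all genes) and in 15 of 21 for E60 over E40 (60.6% over all genes). No gene had probe sets over 2-fold in opposite directions, which says nothing about their agreement. For E50 over E40 no chromatin probe set was over 2-fold higher, and for E60 over E50 none was over 2-fold lower. For E60 over E40 the only one over 2-fold higher belonged to SMYD2, which has 1 probe set.

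**Figure D5:**
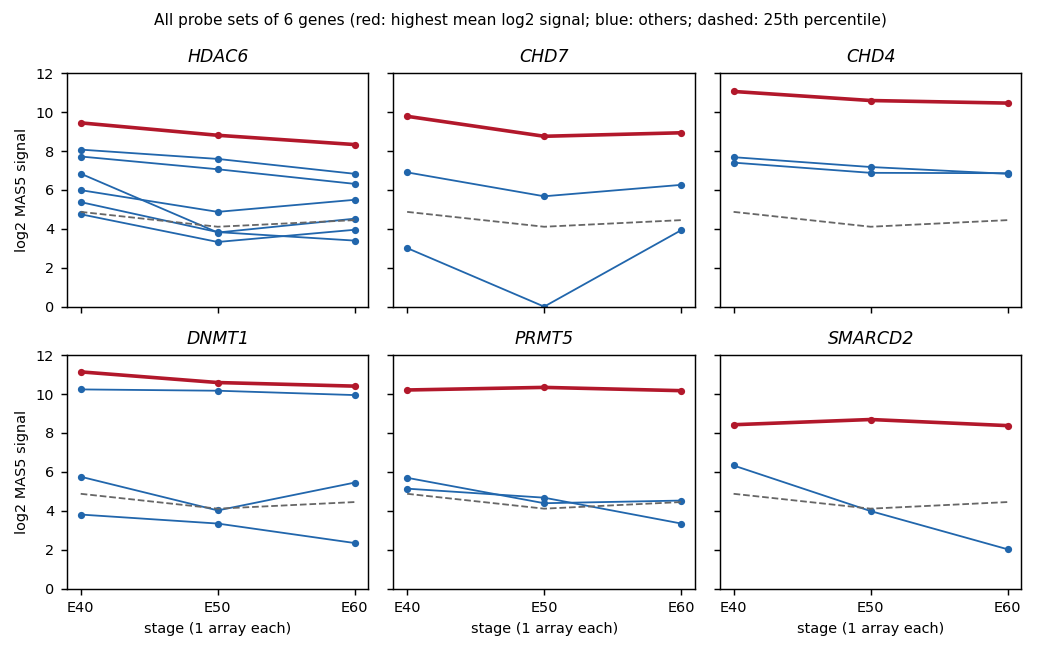
Log2 signal (vertical axis) on the E40, E50 and E60 arrays (horizontal axis, 1 array each) of every probe set of HDAC6, CHD7, CHD4, DNMT1, PRMT5 and SMARCD2, with the representative probe set in red, the others in blue and the 25th percentile of each array dashed. All measured HDAC6 and CHD4 probe sets are lower at E60 than at E40, whereas dim probe sets of PRMT5 and SMARCD2 are lower and their representatives differ by -0.03 and -0.05 (log2).

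Other chromatin genes, from a list of enzymes and complex subunits outside the symbol rule, are given beside the shares of all genes. Of 103 listed genes 47 were named by the platform table and 46 measured for E50 over E40, of which 2 were higher and 0 lower by over 2-fold (median log2 -0.09), against 2.73% and 7.98% of all genes. SUV39H2, a heterochromatin methyltransferase, was one of them, at 377 (E40), 789 (E50) and 691 (E60), and SATB1, which organises chromatin loops, the other, at 393 (E40), 1983 (E50) and 4020.1 (E60). For E60 over E50 SATB1 alone of 47 was higher and none lower (median -0.15), against 4.37% and 1.75% of all genes, and for E60 over E40 SATB1 was higher and NCOA1, a coactivator of nuclear receptors, lower of 46 (median -0.20), against 4.44% and 7.21%. NCOA1 stood at 1496 (E40), 1037 (E50) and 624 (E60), and like SUV39H2 it was named because it passed 2-fold. Of 36 listed histone chaperones, histone variants and HMG proteins, 21 were named and 20 measured, and none passed 2-fold in any pair (medians 0.13 for E50 over E40, -0.10 for E60 over E50 and -0.03 for E60 over E40). Beside the shares of all genes just given, a count of 0 among 20 is no result about the list. The gene not measured, SUPT16H, was under the level on all arrays.

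Among markers of other tissues, those of keratinised epithelium had 5 of 6 measured genes lower by over 2-fold at E50 than at E40, against 7.98% of all genes. Their summed signal was 15098 at E40, 3748 at E50 and 4236 at E60 over 7 named genes. The summed signal of 8 endothelial genes was 3227 at E40, 1788 at E50 and 2771 at E60, that of 4 erythroid genes 2367 at E40, 1987 at E50 and 2628 at E60, and that of 6 macrophage genes 844 at E40, 811 at E50 and 1233 at E60. The labelled tissue could be checked by ameloblast and odontoblast genes. Of these, 7 of 8 measured ones were higher by over 2-fold at E60 than at E50, against 4.37% of all genes. AMBN was among them, at 59.8 (E40), 2675 (E50) and 29942 (E60). For E50 over E40 the same list had 4 higher and 2 lower of 8 (KLK4 and COL1A2), against 2.73% and 7.98%. For E60 over E40 it had 5 higher and 1 lower of 9 (KLK4), against 4.44% and 7.21%. The 9 measured housekeeping genes had a median log2 change of 0.02 for E50 over E40, -0.07 for E60 over E50 and -0.07 for E60 over E40, although YWHAZ was 2.24-fold lower at E60 than at E50 and HPRT1 had a log2 change of 0.72 for E50 over E40. The part of these tissues in the small differences of the chromatin genes was not tested.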

How the data were processed

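Expression was measured on 3 Affymetrix Porcine Genome Arrays, 1 pool of 1 litter at each stage, with no replicate array. The authors deposited log2 values of MAS5 signals, and on the linear scale the trimmed mean was 500.1 on each array. Signals in the text are 2 to the power of the deposited log2 value. The table holds 24123 rows, of which the 124 array controls were not analysed. The platform table gave 1 symbol to 10069 probe sets, several to 198 and none to 13732, and 105 of the 107 chromatin probe sets matched RefSeq by gene ID, 0 with another symbol. Signals under the 25th percentile of an array were raised to it, a change over 2-fold was counted, a fold with 1 signal under the level is a bound, and none was given with both under it. The number of arrays limits the precision. No p-value was computed, and counts were read against all genes. Genes named by rule were those over 2-fold apart, PRC2 and DNMT genes and the 3 brightest of each family, 42 in all. The other chromatin genes were added so that each is shown. Of the other chromatin lists, genes over 2-fold apart were named (at most 8 per pair). JARID2, SUPT16H and the single marker genes were named after their values were seen. The chromatin genes and lists were chosen with earlier results of these data known. Counting was tested on simulated data. Alternatives were other scalings, levels, thresholds and probe set rules. Work was done in Python 3.11.15 with pandas 2.3.3 and NumPy 2.4.6.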

Additional observations from a re-analysis of the deposited data

How the results depend on the processing

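The counts over 2-fold were small and moved with scale, level and probe set rule. With the arrays scaled to equal medians the median log2 fold change of the chromatin genes was 0.26 for E50 over E40 and 0.042 for E60 over E40, and after quantile normalization it was 0.0017 for E50 over E40, all of the opposite sign to the deposited scale. The mean over all probe sets of a gene gave -0.23 for E50 over E40. At equal medians 17 genes had a lower signal for E50 over E40 and 29 for E60 over E40 (23.5% and 27.7% of all genes), a count that was added after seeing the data. For E50 over E40, higher genes numbered 1 at equal medians (SMYD2) and 1 without the level (JMJD1C), against 8.49% and 4.57% of all genes. Lower genes numbered 1 each at 3-fold, at equal medians, with the level at the 50th percentile and after quantile normalization. Among all genes these shares were 4.02%, 5.09%, 4.09% and 5.02%. With the mean over probe sets 6 of 65 were lower (ARID4B, CHD7, HDAC6, SMARCA4, SMARCD2 and SMYD1), near the 9.28% of all genes. For E60 over E50, without the level 1 was higher, against 7.66% of all genes. The mean over probe sets gave 2 higher genes (CHD7 and SMARCA4) and 1 lower (SMARCD2), against 4.57% and 2.1% of all genes. That mean was taken before the level was applied, so readings under the level entered it. At E50 and E60, a probe set of CHD7 read 1.0 and 15.2, 1 of SMARCA4 6.27 and 36.3, and 1 of SMARCD2 15.8 and 4.05. The representative probe sets of these 3 genes had log2 changes of 0.18, -0.35 and -0.31. For E60 over E40, higher genes numbered 0 at 3-fold, 2 at equal medians, 2 without the level and 3 after quantile normalization (DNMT3B, JMJD7 and SMYD2). Among all genes the shares were 1.52%, 8.78%, 6.43% and 6.87% in that order. Lower genes numbered 1 at 3-fold and 1 at equal medians (SMYD1 in each), against 2.92% and 4.49% of all genes. Genes past the SD between probe sets were counted under other scalings after seeing the data. For E50 over E40 they numbered 24 above and 2 below at equal medians, against 52.0% and 11.8% of all genes. After quantile normalization 5 were above, against 26.7%. For E60 over E50 3 were above at equal medians and 2 after quantile normalization, against 16% and 15% of all genes. For E60 over E40 12 were above and 6 below at equal medians, against 38.7% and 11.1%. CHD7 for E50 over E40 was -0.64 at equal medians and -0.95 after quantile normalization, and EZH2 and HDAC6 for E60 over E40 were -0.87 and -0.81 at equal medians, all under 2-fold. With the level at the 50th percentile SMYD1 was not measured. Without the level, and with a common level, all 125 values of the named genes kept their side of 2-fold. Of these genes only SMYD1 had a signal under any of the levels, so the values of the others could not change. JMJD1C, which is not among them, was over 2-fold higher in each pair without the level. The cause of these changes was not tested. No paired analysis was possible because each stage has 1 array, and for the same reason no replicate could be left out.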
